A study of Mus musculus with 10 samples.

Results

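The 7 genes Hmgcs1, Idi1, Fdft1, Sqle, Lss, Cyp51 and Dhcr7 encode enzymes of cholesterol synthesis. They were chosen by name, as representatives of the pathway from the synthesis of HMG-CoA to the last reduction. Earlier results of these data were known at the choice. The 7 genes are among the 47729 genes in the deposited table of counts. Their expression was read from RNA sequencing of brain tissue of CF1 mice, an outbred stock, on postnatal day 56. Low-protein (LP) libraries came from offspring whose parents ate an LP diet while mating and whose dams ate it through gestation and lactation. Normal-protein (NP) libraries came from offspring of parents kept on an NP diet over the same period. Parents of both groups ate the NP diet for the days just before mating, and all pups were given it for 5 weeks from weaning at day 21, so no animal was on the LP diet when tissue was taken. There were 2 hypothalamus libraries (LP and NP, males), 4 hippocampus libraries and 4 prefrontal cortex libraries (LP and NP, males and females). Each combination of region, sex and diet was thus sequenced once, and the labels do not say whether a library is 1 animal or a pool. Nor do the labels say whether the regions of the same sex and diet came from the same animals, and the tests take them as independent. The p-values below therefore measure the spread among these libraries.

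Cholesterol in the brain is made locally, because lipoproteins of the blood hardly cross the blood-brain barrier. Oligodendrocytes use it for myelin, and astrocytes make it and pass it to neurons. The genes of the pathway share a transcription factor, SREBP-2 (encoded by Srebf2), which moves to the nucleus when sterols in the endoplasmic reticulum are low. HMG-CoA synthase (Hmgcs1) makes HMG-CoA early in the pathway, and the isomerase Idi1 interconverts the isoprenoid building blocks. Squalene synthase (Fdft1) makes the first intermediate that is committed to sterols. Squalene epoxidase (Sqle) and lanosterol synthase (Lss) then turn squalene into the first sterol, lanosterol. Lanosterol demethylase (Cyp51) starts the trimming of lanosterol, and Dhcr7 performs the last reduction to cholesterol in one branch of the pathway.

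Promoters are shown for 3 of the genes to place the SREBP-2 and NF-Y sequence motifs known from this pathway beside the measurements: Hmgcs1 had the highest level, Cyp51 was the gene called for diet, and Lss was called together with Cyp51 between hippocampus and prefrontal cortex. The 250 bases upstream of the start were taken from RefSeq on GRCm38.p6, in which 5 of the 7 genes had an entry (all but Sqle and Fdft1). They lie at chr13:119690101-119690350 on the plus strand for Hmgcs1, at chr10:76531355-76531604 on the plus strand for Lss, and at chr5:4104698-4104947 on the minus strand for Cyp51. Capitals mark TCACNCCAC, a core of the sterol regulatory element, and CCAAT, the NF-Y box, on either strand (CCAAT on the other strand reads ATTGG).
Hmgcs1: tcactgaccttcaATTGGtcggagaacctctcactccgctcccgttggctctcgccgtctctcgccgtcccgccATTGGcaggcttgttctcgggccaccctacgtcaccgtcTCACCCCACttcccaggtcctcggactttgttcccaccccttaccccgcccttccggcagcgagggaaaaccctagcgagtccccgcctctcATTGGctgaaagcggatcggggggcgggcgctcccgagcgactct
Lss: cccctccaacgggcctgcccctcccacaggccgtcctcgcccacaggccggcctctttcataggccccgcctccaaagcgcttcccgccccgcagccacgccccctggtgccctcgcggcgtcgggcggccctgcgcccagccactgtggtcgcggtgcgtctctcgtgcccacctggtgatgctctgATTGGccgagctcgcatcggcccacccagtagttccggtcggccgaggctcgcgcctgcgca
Cyp51: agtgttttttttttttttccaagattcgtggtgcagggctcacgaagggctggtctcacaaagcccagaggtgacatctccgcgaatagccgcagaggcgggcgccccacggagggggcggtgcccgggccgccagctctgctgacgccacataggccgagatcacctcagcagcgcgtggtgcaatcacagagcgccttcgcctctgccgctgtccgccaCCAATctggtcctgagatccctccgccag
TCACNCCAC was found in 1 of the 5 genes, Hmgcs1, between 137 and 129 bases upstream. The same letters occur in a promoter of 1.22% of the 27025 genes in the RefSeq table. Only this spelling of the sterol regulatory element was searched, and a promoter without it may hold another. CCAAT was found in 5 of the 5, for Dhcr7 only at the last of its annotated starts, against 37.5% of all genes. In Cyp51 it begins 29 bases upstream, and in Hmgcs1 there are 3 copies, of which 1 begins 45 bases upstream. Distances are from the RefSeq start. In the annotation matched to the counts, Cyp51 reaches chr5:4104746 and Lss begins at chr10:76531588, so the windows of Cyp51 and Lss overlap their genes. The GC box GGGCGG, searched on both strands like the others, was in 5 of the 5 against 35.4%, and the E-box CACGTG was in 1 (Dhcr7, at its second start) against 6.86%. No match overlapped a match of another motif, and a match is a description of sequence and not a measured site.

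Total counts per library ranged from 7871010 to 16265481. The lowest belonged to the female NP hippocampus library, which has almost no counts from a point on chromosome 4 onwards in the text order of chromosome names, so that of 4501 well counted genes (a mean of at least 50 counts) after that point 4486 had 0. Cyp51 on chromosome 5 and Dhcr7 on chromosome 7 fall in this stretch. They were treated as not measured in that library and have 9 values instead of 10. Levels are in CPM, the count scaled to a common library total, taken over the 28131 genes measured in all 10 libraries and scaled by TMM, so they run higher than CPM over all genes. A count of 0 allows 0.283 to 0.441 CPM over the same genes before the scaling by TMM. This covers counting error only, and the 7 genes had between 354 and 4377 counts per library. Markers of hypothalamus and hippocampus were where the labels put them. The neuropeptide genes Hcrt, Pmch, Avp and Oxt had 26.0 to 438 CPM in hypothalamus and at most 0.784 CPM elsewhere, and Prox1 and Lct were highest in hippocampus. Those of prefrontal cortex separated the regions less. Fezf2 was highest there (67.8 to 85.6 CPM), but hippocampus was close (55.2 to 63.4 CPM). Rorb, chosen for prefrontal cortex, was highest in hypothalamus (44.0 to 53.0 CPM) and did not separate the regions as intended. These region markers were added after the counts had been seen.

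The 7 genes were expressed in every library in which they were measured. Per kilobase of the principal transcript, Hmgcs1 had the highest level (110 CPM per kilobase, mean over libraries). Sqle (41.6) and Fdft1 (40.3) followed on the same scale, then Cyp51 (33.7), Dhcr7 (25.5), Idi1 (22.3) and Lss (12.6). With the union of all exons as the length, Hmgcs1 was still first (83.1 CPM per kilobase) and Lss last (5.47), while Sqle (20.7) came after Fdft1 (35.3) and Cyp51 (30.0). The order in the middle thus depends on the transcript that is taken. Across libraries the genes varied little: the highest CPM was 1.12 times the lowest for Dhcr7, 1.17 times for Hmgcs1 and at most 1.79 times, for Fdft1.

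**Figure D1:**
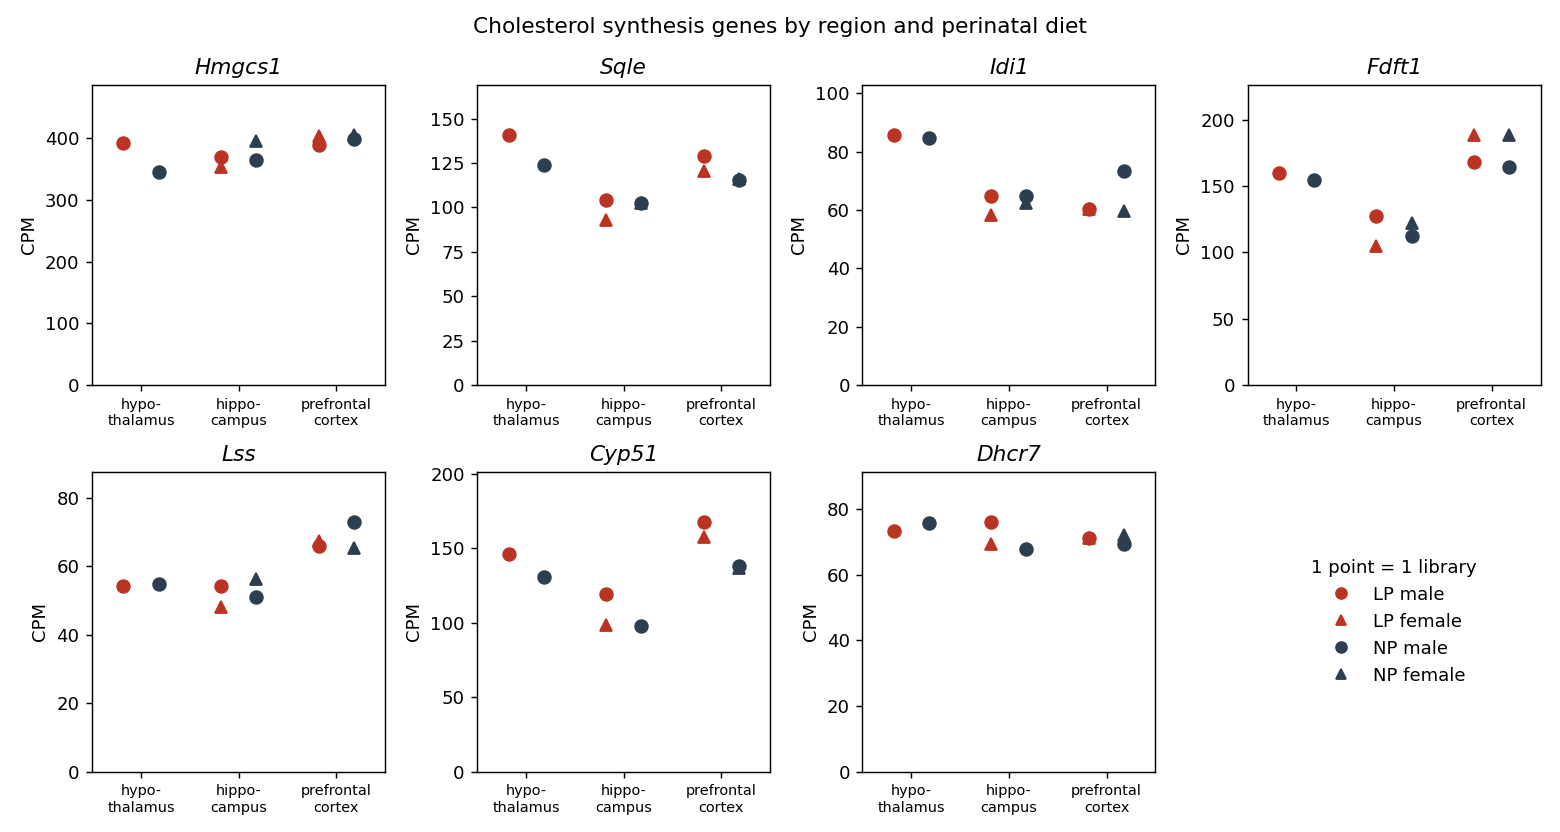
CPM of the 7 genes (vertical axes, starting at 0) in hypothalamus, hippocampus and prefrontal cortex, with LP left of NP, circles for males and triangles for females; each point is 1 library. The LP point of Cyp51 is above the NP point of the same sex wherever both were measured, Fdft1 is lowest in hippocampus, and Dhcr7 stays between 67.8 and 76.2 CPM; Cyp51 and Dhcr7 have no female NP hippocampus value.

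The first comparison asked whether perinatal diet was followed by a different level of these genes in the adult brain. Cyp51 was the 1 of 7 that rose. The other 6, including the enzymes directly before it (Lss and Sqle) and the last one (Dhcr7), had differences of 0.06 or less on the log2 scale in either direction and did not pass the test. Over all 17659 genes tested, 1.42% were called, 0.957% higher and 0.464% lower in LP. The median of the 7 differences was 0.01, and that of all genes -0.0003. RNA was taken from whole tissue, in which fewer cells of a type and less RNA per cell cannot be told apart.

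Cyp51 had 146 CPM in the LP and 131 CPM in the NP hypothalamus. It had 119 CPM in LP and 97.6 CPM in NP hippocampus of males, and 98.7 CPM in LP hippocampus of females, where NP was not measured. In prefrontal cortex it had 168 CPM in LP and 138 CPM in NP males, and 158 CPM in LP and 137 CPM in NP females. LP was above NP in 4 of 4 pairs. A ratio above 0 in every measured pair was found for 8.02% of all genes. This share, and that for the intervals below, pool genes with and without a measured female hippocampus pair. Genes without it have fewer pairs and meet the condition more easily. Neither share is thus the rate among genes with the same 4 pairs as Cyp51. The fitted LP minus NP difference was 0.23 ± 0.05 (SE, log2; 95% interval 0.12 to 0.34), or 1.17-fold, with an adjusted p of 0.039 in edgeR's quasi-likelihood test. In single pairs the log2 ratio was 0.16 in hypothalamus, 0.29 in male hippocampus, 0.28 in male prefrontal cortex and 0.21 in female prefrontal cortex, and each of the 4 counting intervals lay above 0, as in every measured pair of 0.498% of all genes.

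The call of Cyp51 rests on a narrow margin. It was lost without the male prefrontal cortex pair (adjusted p = 0.133), without the female prefrontal cortex pair (0.182) and without the male hippocampus pair (0.195), as well as with DESeq2 (0.166) and without the filter on low counts (0.0814). In these 5 settings the difference itself lay between 0.21 and 0.24. With the blank counts of the incomplete library read as true zeros it had an adjusted p of 0.881. Without the hypothalamus pair, the adjusted p was 0.0211 and the difference 0.26. Cyp51 shares 166 exon bases with Akap9 on the opposite strand, and since the strand setting of the counting is not given, reads from these bases cannot be assigned to either gene; Akap9 had a difference of -0.09 (adjusted p = 0.641), and its part in the counts of Cyp51 was not tested.

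Upstream of Cyp51, the early enzymes showed no common direction. Hmgcs1 had 392 CPM in LP and 345 CPM in NP hypothalamus. In hippocampus it had 370.2 CPM in LP and 365 CPM in NP males, and 354 CPM in LP and 395 CPM in NP females. In prefrontal cortex it had 389 CPM in LP and 399 CPM in NP males, and 403 CPM in LP and 405 CPM in NP females. LP was thus higher in the hypothalamus, lower in female hippocampus and close to NP in the other 3 pairs, and the fitted difference was 0.00 (95% interval -0.10 to 0.10). Idi1 had 85.7 and 84.6 CPM in LP and NP hypothalamus, 64.8 and 64.9 CPM in LP and NP male hippocampus, and 58.4 and 62.2 CPM in LP and NP female hippocampus. Its largest gap was in male prefrontal cortex, with 60.4 CPM in LP and 73.2 CPM in NP, whereas females had 60.5 CPM in LP and 59.8 CPM in NP. The difference of Idi1 over all pairs was -0.06 (95% interval -0.19 to 0.06).

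The squalene and lanosterol steps were likewise near 0. Fdft1 had 159.8 CPM in LP and 154 CPM in NP hypothalamus, 128 CPM in LP and 113 CPM in NP male hippocampus, and 105 CPM in LP and 122 CPM in NP female hippocampus. In prefrontal cortex it had 168 CPM in LP and 165 CPM in NP males, and 189 CPM in both LP and NP females. The groups overlap in every region with more than 1 pair, and the fitted difference was 0.01 (95% interval -0.10 to 0.13). For Sqle the libraries read 141 CPM in LP and 124 CPM in NP hypothalamus, 104 CPM in LP and 103 CPM in NP male hippocampus, and 92.9 CPM in LP and 103 CPM in NP female hippocampus. They read 129 CPM in LP and 115 CPM in NP male prefrontal cortex, and 121 CPM in LP and 116 CPM in NP female prefrontal cortex. Sqle was higher in LP in 4 of 5 pairs, with the exception of female hippocampus, and its difference was 0.06 (95% interval -0.05 to 0.18, adjusted p = 0.642). Lss had 54.1 CPM in LP and 54.8 CPM in NP hypothalamus, 54.1 CPM in LP and 50.9 CPM in NP male hippocampus, and 48.2 CPM in LP and 56.2 CPM in NP female hippocampus. In prefrontal cortex Lss had 65.9 CPM in LP and 73.0 CPM in NP males, and 67.4 CPM in LP and 65.4 CPM in NP females. Its sign differed between the pairs, and the fitted difference was -0.05 (95% interval -0.18 to 0.08).

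Dhcr7, the reductase affected in human Smith-Lemli-Opitz syndrome, was the steadiest of the 7. It had 73.2 CPM in LP and 75.7 CPM in NP hypothalamus, 76.2 CPM in LP and 67.8 CPM in NP male hippocampus, and 69.4 CPM in LP female hippocampus. In prefrontal cortex it had 71.1 CPM in LP and 69.2 CPM in NP males, and 71.3 CPM in LP and 72.0 CPM in NP females. The difference of Dhcr7 was 0.03 (95% interval -0.10 to 0.16). The 95% intervals of the 6 uncalled genes together ran from -0.19 to 0.18 and overlap that of Cyp51, which begins at 0.12; the difference between genes was not tested.

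**Figure D2:**
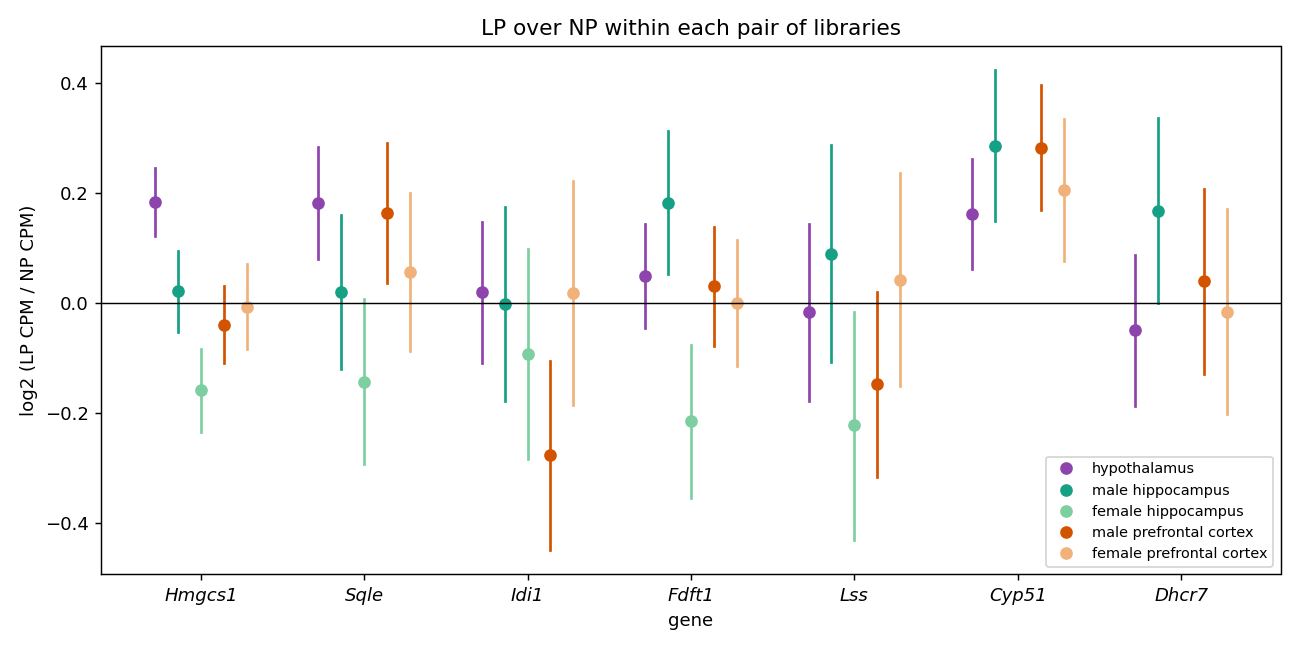
Log2 of LP CPM over NP CPM for each gene (horizontal axis, in the order of its label) in the 5 pairs of libraries; points are ratios and vertical lines their 95% counting intervals. Cyp51 is above 0 in each of its 4 pairs, from 0.16 to 0.29, while in female hippocampus the 5 genes measured there are below 0.

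In female hippocampus the log2 ratio was below 0 for each of the 5 genes measured in the pair, namely Lss (-0.22), Fdft1 (-0.22), Hmgcs1 (-0.16), Sqle (-0.14) and Idi1 (-0.09), and the counting interval left out 0 for Lss, Fdft1 and Hmgcs1. Of all 11341 genes in that pair 48.7% had a ratio below 0, and the interval left out 0 for 12.6%, 5.26% on the lower side. In male hippocampus 6 of 7 ratios were above 0, and the interval left out 0 for Cyp51 (0.29), Fdft1 (0.18) and Dhcr7 (0.17). There 50% of all genes had a ratio above 0, and the interval left out 0 for 16%, 7.87% on the higher side. Each such interval covers the counting of 1 library against another and not the spread between animals. The NP partner in the female pair is the incomplete library. When diet was fitted within hippocampus over both sexes, 0 of the 5 testable genes passed in edgeR's test (0.281% of 11749 genes did), 0 had an unadjusted p under 0.05 and 0 passed with DESeq2, with differences from -0.07 for Hmgcs1 to -0.01 for Fdft1. The test of females minus males for the diet difference, over hippocampus and prefrontal cortex, gave -0.20 ± 0.10 (SE) for Fdft1, with an adjusted p of 0.739. It called 0 of 5 genes here, 0 also at an unadjusted p under 0.05 and 0 with DESeq2, and 21 of 10973 genes in all (0.191%).

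In prefrontal cortex alone 0 of the 5 testable genes passed for diet in edgeR's test, against 1.29% of 11749 genes, and 0 did so at an unadjusted p under 0.05 or with DESeq2. Idi1 had the largest difference there (-0.14, adjusted p = 0.552) and Sqle the next (0.11, adjusted p = 0.553). The hippocampus minus prefrontal cortex difference of the diet effect was largest for Sqle (-0.17, adjusted p = 0.962), and 0 of 5 passed. In that test edgeR called 0 of 11749 genes (0%), with 614 at an unadjusted p under 0.05, and DESeq2 also called 0. Cyp51 and Dhcr7 were left out of these comparisons, which were fitted only for genes measured in all 10 libraries. Without the missing library, 1 residual degree of freedom would have been left for the spread. In prefrontal cortex itself they were measured in all 4 libraries, with the values given above. In the hypothalamus, with 1 library per diet and no test, the interval left out 0 for Hmgcs1 (0.18), Sqle (0.18) and Cyp51 (0.16), all higher in LP. That held for 30.5% of all genes in that pair, 16.3% on the higher and 14.3% on the lower side.

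Further enzymes of the pathway, though not all, were examined as a list of 12. Of these 0 passed for diet in edgeR's test and 0 with DESeq2, while 1, Mvd, had an unadjusted p under 0.05, and 10 of 12 differences were above 0 (median 0.07). Without the hypothalamus pair 1 of the 12 was called. Mvd, which makes isopentenyl diphosphate, had a difference of 0.23 ± 0.10 (SE, adjusted p = 0.292), about the size of that of Cyp51 but with a wider error. Msmo1, the methyl oxidase that acts after Cyp51, had 0.10 (adjusted p = 0.433), Sc5d, a desaturase of the last steps, had 0.10 as well (adjusted p = 0.571), and Pmvk, the phosphomevalonate kinase, had 0.08 (adjusted p = 0.599).

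**Figure D3:**
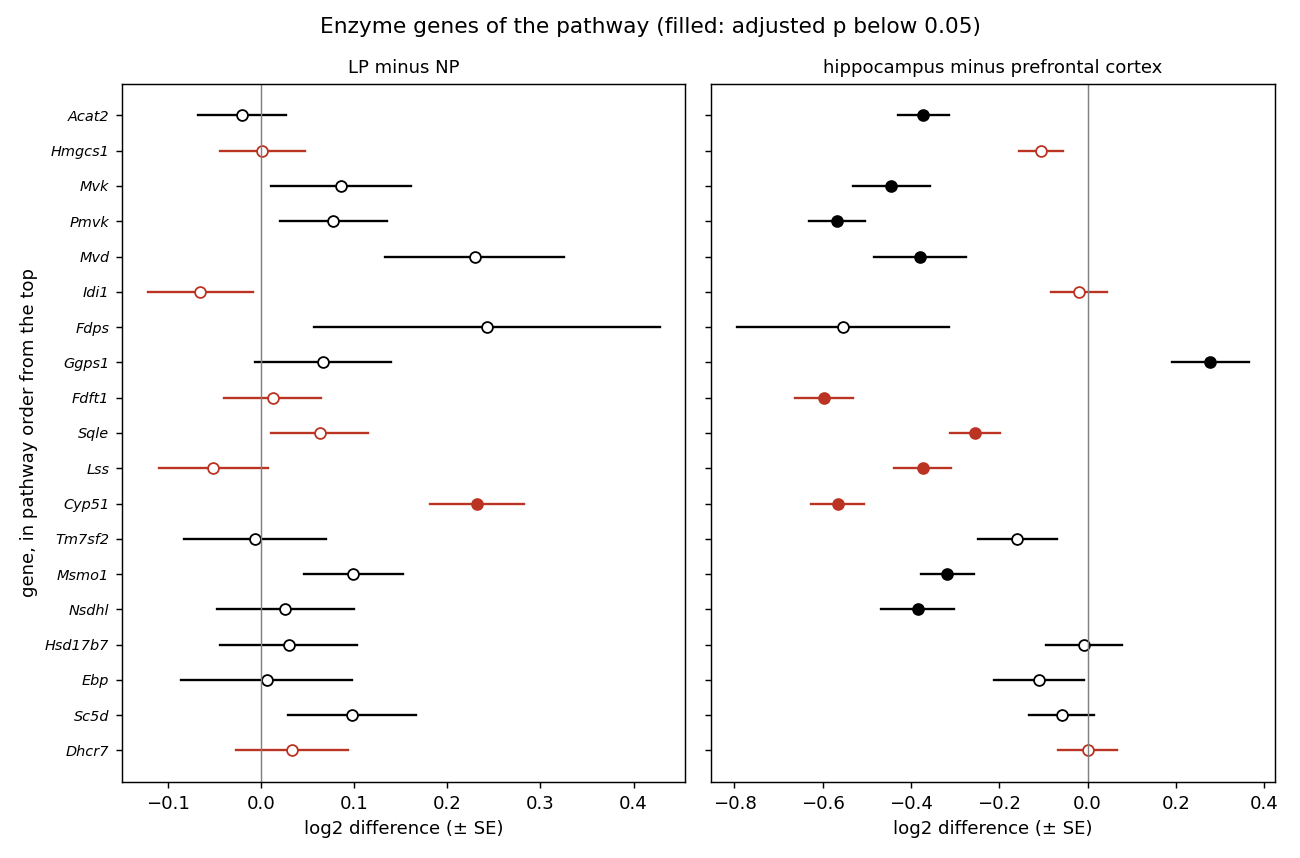
Fitted log2 differences (horizontal axes, with bars of 1 SE) for the 7 genes (red) and 12 further enzymes (black), from the top in pathway order, for LP minus NP on the left and hippocampus minus prefrontal cortex on the right; filled points passed at an adjusted p below 0.05. On the left only Cyp51 is filled among the 19 genes shown, and on the right the filled points lie below 0 except Ggps1.

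The regulators of sterol synthesis and other SREBP targets that were examined were not called for diet. Among the 7 regulators 0 passed in edgeR's test or with DESeq2, and 1 had an unadjusted p under 0.05 (Srebf1). Srebf2 itself had a difference of 0.03 (adjusted p = 0.775), Insig2, which retains the precursor in the endoplasmic reticulum, had 0.10 (0.398), and Srebf1, which favours fatty acid genes, had -0.14 (0.256). Among 5 other SREBP targets 0 passed with either tool and 1 had an unadjusted p under 0.05, Stard4, a sterol carrier (-0.23, adjusted p = 0.205). Of the marker lists of other cells, astrocytes (10 genes), neurons (8), microglia (8), endothelium (7) and oligodendrocyte precursors (5) had 0 genes called for diet in edgeR's test, with 2, 1, 0, 1 and 1 at an unadjusted p under 0.05, while 3 other lists had calls. The 18 myelin and oligodendrocyte genes were all below 0 (median -0.25), 1 of them called (Opalin, -0.49, adjusted p = 0.0303). Their sum over 12 genes was 3801 CPM in LP and 4991 CPM in NP hypothalamus, 6477 to 6538 CPM in LP and 5854 to 7234 CPM in NP hippocampus, and 1872 to 2034 CPM in LP and 2185 to 2996 CPM in NP prefrontal cortex. Within prefrontal cortex all 12 testable myelin genes were below 0 and 6 of them were called, where 1.29% of 11749 genes were called. Of the 6 testable neuron genes 1 was called lower there (Map2, -0.42, adjusted p = 0.00152 in edgeR's test). Of the blood genes 2 of 2 testable were called lower there, and the other marker lists had 0 calls. Over all pairs the 5 blood genes all fell (median -0.61), and 2 of them summed to 987 CPM in LP and 1467 CPM in NP hypothalamus. In hippocampus these 2 summed to 271 to 276 CPM in LP and 348 to 394 CPM in NP. In prefrontal cortex they summed to 525 to 594 CPM in LP and 886 to 1038 CPM in NP. Of the 8 choroid plexus genes 7 were above 0 and Ttr rose (1.36, adjusted p = 0.0152). Their sum over 5 genes was 80.5 CPM in LP and 86.7 CPM in NP hypothalamus, 298 to 330.4 CPM in LP and 73.9 to 172 CPM in NP hippocampus, and 1.56 to 1.96 CPM in LP and 3.11 to 3.18 CPM in NP prefrontal cortex. In prefrontal cortex the choroid plexus genes Folr1, Kcne2 and Otx2 had 0 counts in at least 1 library, while no gene of the other marker lists was at 0 anywhere. The part of these lists in the result for Cyp51 was not tested.

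More genes differed between regions than between diets. From the fit with sex and diet as terms, 4 of the 7 genes were lower in hippocampus than in prefrontal cortex: Fdft1, Cyp51, Lss and Sqle. Hmgcs1 and Idi1 before them and Dhcr7 at the end did not pass. So 4 of 7 were called, a share near the 54% of all 17421 genes in this comparison, 27.5% higher and 26.5% lower. The median of the 7 differences was -0.26 and that of all genes -0.01.

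Fdft1 had the largest difference, with 105 to 128 CPM in the 4 hippocampus and 165 to 189 CPM in the 4 prefrontal cortex libraries. In edgeR's test Fdft1 was 0.60 ± 0.07 lower in hippocampus on the log2 scale (SE, adjusted p = 3.73e-06). Cyp51 had 97.6 to 119 CPM in the 3 hippocampus and 137 to 168 CPM in the 4 prefrontal cortex libraries. The difference of Cyp51 was -0.57 ± 0.06 (adjusted p = 6.41e-07). Lss averaged 52.4 ± 3.5 CPM in hippocampus and 67.9 ± 3.5 CPM in prefrontal cortex (SD, n = 4 each). The difference of Lss was -0.37 ± 0.06 (adjusted p = 0.000199 in the same test). Sqle averaged 101 ± 5 CPM in hippocampus and 120.2 ± 6.4 CPM in prefrontal cortex (SD, n = 4 each), a difference of -0.26 ± 0.06 (adjusted p = 0.00172). Without the female prefrontal cortex pair Sqle had -0.24 and an adjusted p of 0.0538. Hmgcs1 had 354 to 395 CPM in hippocampus and 389 to 405 CPM in prefrontal cortex, which overlap (-0.11, adjusted p = 0.0849); without the hypothalamus pair its adjusted p was 0.0328. Idi1 (-0.02) and Dhcr7 (0.00) had 95% intervals of -0.15 to 0.12 and -0.14 to 0.14. Fdft1 shares 774 exon bases with Ctsb, a lysosomal protease gene on the opposite strand with 74878 counts in all against 12656 for Fdft1. Ctsb was lower in hippocampus too (-0.30, adjusted p = 7.39e-06), and its part in the counts of Fdft1 was not tested. Akap9, which overlaps Cyp51, was higher in hippocampus (0.28, adjusted p = 0.0323).

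**Figure D4:**
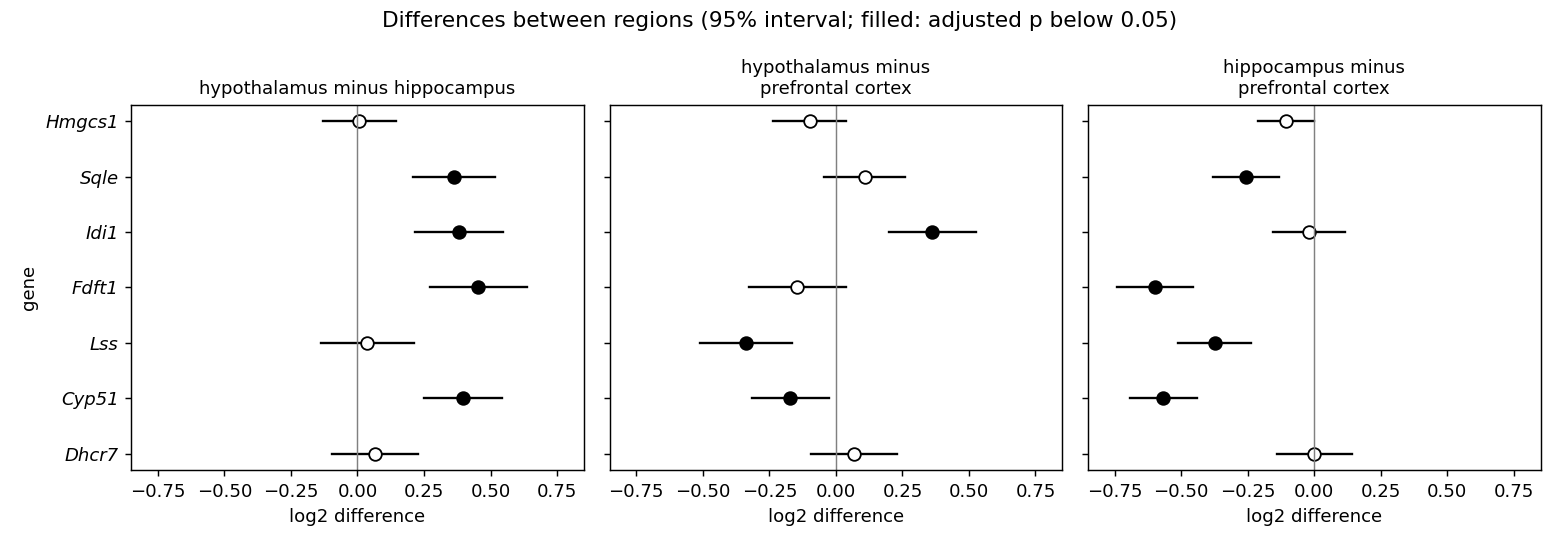
Log2 differences of the 7 genes (vertical axis) for hypothalamus minus hippocampus, hypothalamus minus prefrontal cortex and hippocampus minus prefrontal cortex; lines are 95% intervals and filled points passed at an adjusted p below 0.05. Fdft1, Cyp51 and Sqle are filled and on opposite sides of 0 in the first and the third panel, Idi1 is filled in the first and the second, and Hmgcs1 and Dhcr7 are open throughout.

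Hypothalamus had more RNA of several of these enzymes than hippocampus, and differed from prefrontal cortex in both directions. Against hippocampus 4 of 7 genes were higher: Fdft1 (0.45 ± 0.08, adjusted p = 0.000345), Cyp51 (0.40 ± 0.07, adjusted p = 0.000114), Idi1 (0.38 ± 0.08, adjusted p = 0.000597) and Sqle (0.36 ± 0.07, adjusted p = 0.000524). As a share, 4 of 7 is near the 60.7% of all genes called here, 30.6% higher and 30% lower. The genes that overlap Cyp51 and Fdft1 were higher too, Akap9 by 0.98 (adjusted p = 6.92e-07) and Ctsb by 0.28 (adjusted p = 0.000135), and their part was not tested. Idi1 had 84.6 and 85.7 CPM in the 2 hypothalamus and 58.4 to 64.9 CPM in the 4 hippocampus libraries; without the male hippocampus pair its adjusted p was 0.0671. Against prefrontal cortex Idi1 was higher (0.36 ± 0.08, adjusted p = 0.000803), while Lss (-0.34 ± 0.08, adjusted p = 0.00198) and Cyp51 (-0.17 ± 0.07, adjusted p = 0.0387) were lower. In that comparison 63.9% of all genes were called, 33.2% higher and 30.7% lower, and Akap9 was higher (1.25, adjusted p = 4.38e-08). The call of Lss ended without the male prefrontal cortex pair (adjusted p = 0.0908). That of Cyp51 held in 3 of 9 other settings, and ended with DESeq2 (0.0968), without the low-count filter (0.0718), with zeros kept (0.955) and without the female prefrontal cortex (0.152), male hippocampus (0.142) or female hippocampus pair (0.102). Fdft1, uncalled at -0.14, had -0.35 with an adjusted p of 0.0291 without the male prefrontal cortex pair. Only males were sampled in hypothalamus, and both comparisons share its 2 libraries. The bracketed string in the title of the LP hypothalamus library differs from those of the other 9, and its meaning is not stated.

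In order of mean level, Fdft1, Lss and Cyp51 were highest in prefrontal cortex, Sqle and Idi1 in hypothalamus. For Fdft1 and Sqle the prefrontal cortex and hypothalamus did not differ beyond the test, and for Lss the hypothalamus and hippocampus did not (0.04, adjusted p = 0.722). Dhcr7 averaged 74.5 ± 1.8 CPM in hypothalamus (SD, n = 2), 71.1 ± 4.5 CPM in hippocampus (SD, n = 3) and 70.9 ± 1.2 CPM in prefrontal cortex (SD, n = 4), with no neighbours apart by the test. Hmgcs1 averaged 369 ± 33 CPM in hypothalamus (SD, n = 2), 371 ± 17 CPM in hippocampus and 399 ± 7 CPM in prefrontal cortex (SD, n = 4 each), again with none apart.

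The further enzymes were lower in hippocampus than in prefrontal cortex for 6 of 12 and higher for 1 (median -0.34), so 7 of 12 were called, a share near the 54% of all genes. Pmvk had the largest called difference (-0.57, adjusted p = 3.87e-06), followed by Mvk, the mevalonate kinase before it (-0.45), and Nsdhl, a sterol dehydrogenase after Cyp51 (-0.38). Ggps1, which diverts isoprenoids to protein prenylation, was the higher one (0.28, adjusted p = 0.0154). Of the 5 other SREBP targets 3 were lower, Tmem97 (-1.11), Fads1 (-0.49) and Stard4 (-0.28). Of the 7 regulators 3 were lower, Insig1 (-0.67), Srebf2 (-0.28) and Scap, the escort of SREBP (-0.14), and 3 were higher, with Mbtps2, a protease that releases SREBP, at 0.69; these 6 calls were 3 without the female prefrontal cortex pair and 3 without the female hippocampus pair. Hypothalamus against prefrontal cortex gave 5 of 12 enzymes lower and 1 higher, with the largest difference for Hsd17b7, a sterol ketoreductase (-1.02), and the 6 calls, where 63.9% of all genes were called, were 2 without the male prefrontal cortex pair. Against hippocampus 4 were higher and 3 lower, beside 60.7% of all genes called, or 4 in all without the male hippocampus pair.

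Myelin genes ran the other way. All 18 of them were higher in hippocampus than in prefrontal cortex (median 1.63), where 27.5% of all genes were called higher. In hypothalamus 17 of 18 were higher than in prefrontal cortex, against 33.2% of all genes. Against hippocampus 17 of 18 were lower in hypothalamus, as were 30% of all genes. The sum over 12 of them was 5854 to 7234 CPM in hippocampus and 1872 to 2996 CPM in prefrontal cortex, and both hypothalamus libraries (3801 and 4991 CPM) lay between. The 5 cholesterol synthesis genes measured in every library summed to 658 to 738 CPM in hippocampus and 812 to 840 CPM in prefrontal cortex, with 833 CPM in LP and 763 CPM in NP hypothalamus. The hippocampus libraries thus had the highest myelin sums and the lowest sums of these genes. Other lists also held calls between hippocampus and prefrontal cortex, where 54% of all genes were called, 27.5% higher and 26.5% lower. In hippocampus 8 of 8 choroid plexus genes were higher. There 5 of 5 blood genes, 6 of 8 microglia genes and 4 of 7 endothelial genes were lower, the last a share near the 54%. Of the 10 astrocyte genes 3 were higher and 5 lower, and of the 8 neuron genes 2 were higher and 5 lower. The part of cell composition in the region differences was not tested.

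**Figure D5:**
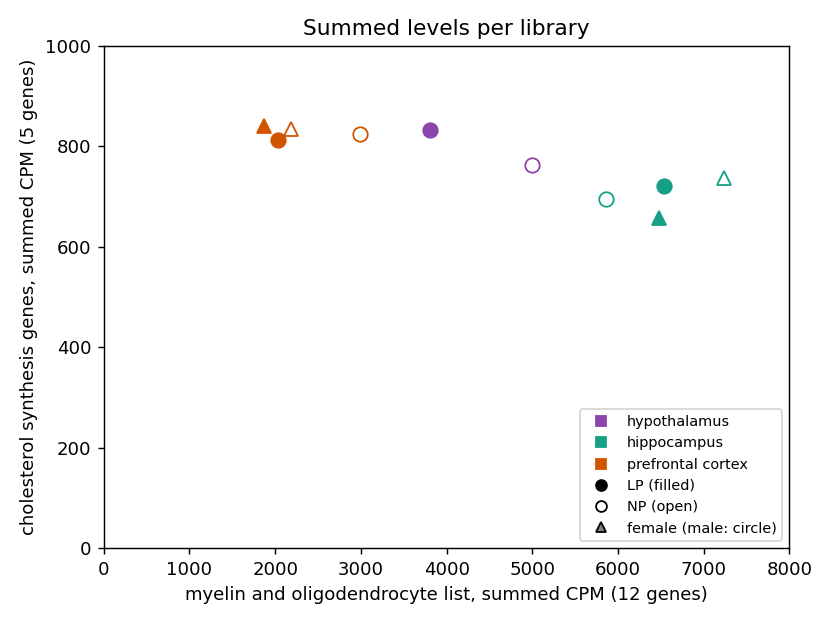
Summed CPM of 5 of the 7 genes (vertical axis, from 0) against summed CPM of 12 myelin and oligodendrocyte genes (horizontal axis, from 0); each point is 1 library, coloured by region, filled for LP and open for NP, with circles for males and triangles for females. The hippocampus libraries have the highest myelin sums and synthesis sums of 658 to 738 CPM, below the 812 to 840 CPM of prefrontal cortex.

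Sex was compared in hippocampus and prefrontal cortex within strata of region and diet. Of the 7 genes 0 passed in edgeR's test, against 103 of 17030 genes in all (0.605%), and DESeq2 likewise called 0 of them; 1, Cyp51, had an unadjusted p under 0.05. Cyp51 had a female minus male difference of -0.12 (adjusted p = 0.529), the smallest p of the 7. It was 98.7 CPM in female and 119 CPM in male LP hippocampus, 158 CPM in female and 168 CPM in male LP prefrontal cortex, and 137 CPM in female and 138 CPM in male NP prefrontal cortex. Females were thus lower in 3 of 3 measured contrasts. Idi1 had the largest difference (-0.13, adjusted p = 0.58), and the remaining 5 genes lay between -0.06 for Sqle and 0.06 for Fdft1.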

How the data were processed

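Total RNA (1 ug per library, per the labels' protocols) was sequenced from TruSeq libraries. Per the submitters' processing notes, CASAVA, FastQC 0.10.1 and STAR 2.5.0a were used with mm10; how reads were counted (tool, strand, annotation) is not given in the sources used here. The deposited values are raw, unnormalized counts, 1 row per Ensembl ID. Genes were matched by ID to an annotation of GRCm38 (47310 of 47729), and those behind the break in the female NP hippocampus library (19598) were treated as not measured there.

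Counts were filtered with filterByExpr (minimum count 10), scaled by TMM and tested with the quasi-likelihood F test of edgeR 4.0.16 in R 4.3.3, adjusted by Benjamini-Hochberg at 0.05 over all genes tested. Diet was fitted within 5 strata of region and sex, which pair the libraries (4 residual degrees of freedom, 3 for genes measured in 9 libraries), and regions with sex and diet as terms (5 or 4). Diet within a region, and its difference between regions or sexes, had 2 and were fitted only for genes measured in all libraries. Single pairs were given as ratios with a prior count of 2 and 95% conditional binomial intervals. Some of the fits were run on simulated data with known changes. These changes were set only in genes measured in all libraries, so recovery from 9 libraries was not tested. DESeq2 1.42.0, RLE factors, no filter, the legacy edgeR method, kept zeros and leaving out each pair were tried.

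The 7 genes, the lists and the tests were chosen with earlier results of these data known. All 7 genes are named in every comparison, and of each other list the genes past the threshold or up to 4 with the smallest p. Some genes of these lists are not reported here.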

Additional observations from a re-analysis of the deposited data

Results flagged for a closer look

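Among 19 sets of values examined for the 7 genes (4 libraries of a region, or the LP over NP ratios of the pairs), 2 held a library far from the others. Chance gives about 1 in 20. Idi1 had 73.2 CPM in the male NP library of prefrontal cortex, while the other 3 libraries lay between 59.8 and 60.5 CPM. Sqle had 92.9 CPM in the female LP library of hippocampus, and the nearest of the other 3 had 103 CPM.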

How the results depend on the processing

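Of 520 recomputed values of the 7 genes, 501 kept their side of the threshold, 17 lost the call, 2 gained one (Hmgcs1 and Fdft1, in the report) and 0 reversed; 37 changed sign without a call. The number of the 7 genes called for diet, 1, was 0 with DESeq2, 0 without the low-count filter and 0 with zeros kept, and 0 to 1 when single pairs were left out. For the region comparisons, diet within or between regions, sexes and the hypothalamus pair, the counts stayed within 1.5 times. Keeping the zeros moved the median of all genes in hippocampus minus prefrontal cortex by -0.16. The further enzymes called for diet (0 of 12) were 0 to 1 without single pairs, and with zeros kept most list counts between regions fell by over 1.5 times (2 of 12 enzymes called in hippocampus minus prefrontal cortex, 7 before). Over all genes, the 251 calls for diet became 115 with DESeq2 (111 shared), 1 with zeros kept and 96 to 291 without single pairs. Within prefrontal cortex 152 became 12 with DESeq2, 21 without the filter, 0 with zeros kept and 36 to 488 without single pairs. Within hippocampus 33 became 11, 5 and 0 in the same 3 settings and up to 89 without single pairs. The regional difference of diet (0) had 1 with the legacy method and up to 42 without single pairs, and that of the sexes (21) had 11 with DESeq2, 0 without the filter, 0 with zeros kept and 5 to 208. Sex (103) had 33, 23 and 0 in those 3 settings and 9 to 263. With zeros kept the regions had 5316, 6026 and 5572 calls (9404 for hippocampus minus prefrontal cortex, 11137 for hypothalamus minus prefrontal cortex and 10570 for hypothalamus minus hippocampus before), and without single pairs as few as 5764, 7417 and 6237. The cause of these changes was not tested. The labels give no replicate numbers, so no block by number was fitted; diet was fitted within strata of region and sex, which pair LP with NP. Counts of 354 and more per library limit single ratios to the intervals given.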

Other observations

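Genes of cholesterol export and turnover were not called for diet (0 of 15 in edgeR's test and 0 with DESeq2, with Lcat and Soat1 at an unadjusted p under 0.05; 1.42% of all genes were called). In hippocampus 11 of 15 were higher than in prefrontal cortex and 4 lower, where 54% of all genes were called, and these 15 calls were 8 or 9 without the male hippocampus pair (8), the female hippocampus pair (9) or the female prefrontal cortex pair (9). Cyp46a1, the neuronal enzyme that converts cholesterol to a form able to leave the brain, was lower in hippocampus (-0.83, adjusted p = 1.46e-08) and lower still against prefrontal cortex in hypothalamus (-1.53). Cyp7b1, an oxysterol hydroxylase, was higher in hippocampus (1.33) and Abca1, a cholesterol exporter, as well (0.92). Of the 9 fatty acid genes 0 passed for diet with either tool and 1, Elovl5, had an unadjusted p under 0.05, and 2 were higher and 4 lower in hippocampus than in prefrontal cortex, with the elongase Elovl6 at 0.98; the 6 calls were 3 without the male hippocampus pair.

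The 5 genes whose pattern over the 10 libraries lay closest to the mean pattern of the 7 genes were Taf6l, Emc1, Ctsb, Nutf2-ps1 and Clcn6, with a root mean square difference of 0.040 to 0.056 in centred log2(CPM + 1). The median over 7736 genes was 0.279, and the pattern's own root mean square was 0.135. The 5 members measured in every library were not among the closest: Sqle had 0.077 (rank 59) and Idi1 0.186 (rank 1840). Ctsb overlaps Fdft1, as given above.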
